A study of Mus musculus with 30 samples.

Results

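The apolipoproteins and the lipid transfer protein that loads them are described here as 10 genes: Apoa1, Apoa2, Apoa4, Apoa5, Apob, Apoc3, Apoe, Apom, Apoh and Mttp. They were chosen by gene symbol in the array's platform annotation, with no measured value used in the rule, and are 10 of the 19406 genes named there. The list itself was drawn up with earlier results of these data known. The array carries 12 probes for them out of 46643, since Apoa2 and Apoa4 have 2 probes each and the other 8 genes have 1.

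The animals were male mice aged 4 months, killed after an overnight fast, with knock-in or knockout alleles of the growth hormone receptor. The groups were wild type (WT), receptor truncated at amino acid 569, receptor truncated at amino acid 391, receptor with a mutated Box1 motif, and receptor removed (KO). Liver and subcutaneous fat were profiled on 30 Illumina bead arrays, 3 for each genotype in each tissue. The labels name neither the strain nor the animal behind each array. The p-values therefore rest on the spread between arrays, part of which may be technical. As background, JAK2 kinase binds the receptor at Box1, close to the membrane, and STAT5 docks on phosphorylated tyrosines farther along the tail. Those tyrosines are lost in the 391 receptor and partly kept in the 569 receptor.

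As background, the liver assembles triglyceride and cholesterol into lipoprotein particles around apolipoprotein B, which the microsomal triglyceride transfer protein encoded by Mttp loads with lipid in the endoplasmic reticulum. Apoa1 and Apoa2 encode the main proteins of high density lipoprotein, and Apom a carrier of sphingosine 1-phosphate on the same particles. Apoc3 restrains and Apoa5 favours the clearance of triglyceride by lipoprotein lipase, while Apoe is the ligand through which remnant particles are taken up. Apoa4 is made by the intestine and, in mice, also by the liver, where it is known to vary with fasting and hepatic fat. Apoh encodes beta-2-glycoprotein I, a plasma protein that binds phospholipid.

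Each value is a ratio of a probe to its median across the 15 arrays of that tissue, so 1 is the tissue median and 0 its log2. No absolute level remains, and probes, genes and tissues are not compared by level. Differences are fitted log2 differences ± SE from limma, and a probe is called where its p-value, after Benjamini-Hochberg adjustment across the 46643 probes, is under 0.05. Each array's title ends in a number and a letter, and arrays with the same number are taken here to share a slide, a word the labels do not use. On that reading WT and 569 livers shared a slide, 391 and KO livers shared another, and the Box1 arrays of both tissues shared a further slide. WT and 569 fat arrays also shared a slide, and so did 391 and KO fat arrays. For comparisons across those slides, in either tissue, slide and genotype cannot be told apart. Differences between the tissues in the effect of 391, Box1 or KO share this limit. In liver, 391 replicates 2 and 3 carried pancreatic transcripts, with 12 and 11 of 12 acinar markers above 1 on the log2 scale and 0 in each of the other livers, and 391 replicate 2 also carried 5 of 7 skeletal muscle markers at that level. The 8 hepatocyte markers averaged between -0.231 and 0.123 (log2) in all 15 livers, and no enterocyte marker exceeded 1 in any of them.

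The promoters of Apoh and Apoa5, the members that moved in the widest comparison below, and of Apoa4, the most variable member in liver, are shown first so that the values can be read beside them. The windows run from 250 bases before to 50 bases after the gene start in RefSeq (GRCm38.p6), which held such windows for 9 of the 10 members, and Apoc3 had none. Capitals mark matches on either strand to the forkhead core TGTTTAC or to the nuclear receptor half-site AGGTCA, both of which are recognised by factor families that act on liver genes.
Apoh chr11:108395047-108395346 (+): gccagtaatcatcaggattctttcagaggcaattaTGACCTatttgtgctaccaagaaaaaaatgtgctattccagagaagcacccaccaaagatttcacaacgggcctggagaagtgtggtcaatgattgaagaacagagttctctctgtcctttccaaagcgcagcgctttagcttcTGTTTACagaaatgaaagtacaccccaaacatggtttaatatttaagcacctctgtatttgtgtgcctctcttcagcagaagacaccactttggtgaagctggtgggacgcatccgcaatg
Apoa5 chr9:46268358-46268657 (+): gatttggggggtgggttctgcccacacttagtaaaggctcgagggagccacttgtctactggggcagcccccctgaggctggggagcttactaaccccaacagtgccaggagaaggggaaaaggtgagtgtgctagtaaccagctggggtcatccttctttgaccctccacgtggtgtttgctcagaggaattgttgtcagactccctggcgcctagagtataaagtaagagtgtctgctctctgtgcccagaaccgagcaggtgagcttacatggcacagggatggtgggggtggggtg
Apoa4 chr9:46240594-46240893 (+): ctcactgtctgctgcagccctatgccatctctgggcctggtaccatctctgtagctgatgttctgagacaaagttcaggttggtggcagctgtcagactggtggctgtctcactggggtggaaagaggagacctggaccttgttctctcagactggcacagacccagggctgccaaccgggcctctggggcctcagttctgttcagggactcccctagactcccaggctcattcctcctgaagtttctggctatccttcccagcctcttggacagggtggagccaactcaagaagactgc
In the Apoh window the forkhead core began 71 bases and the half-site 215 bases upstream of the gene start. The forkhead core was present in 3.65% of all 32851 windows of this length, and among the members in Apoa2, Apoe and Apoh. The half-site was present in 16.3% of windows, and among the members in Apoa2 and Apoh. The STAT5 core TTCNNNGAA, a palindrome that reads the same on both strands and does not overlap the other motifs, was present in 8.3% of windows and in 0 of the 13 member windows. The Apoa5 and Apoa4 windows held none of the 3 motifs. These are matches of letters and were set against no binding data. Apoa5 and Apoa4 lie beside each other on chromosome 9, in the order Sik3, Apoa1, Apoc3, Apoa4, Apoa5 and Zpr1.

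**Figure D1:**
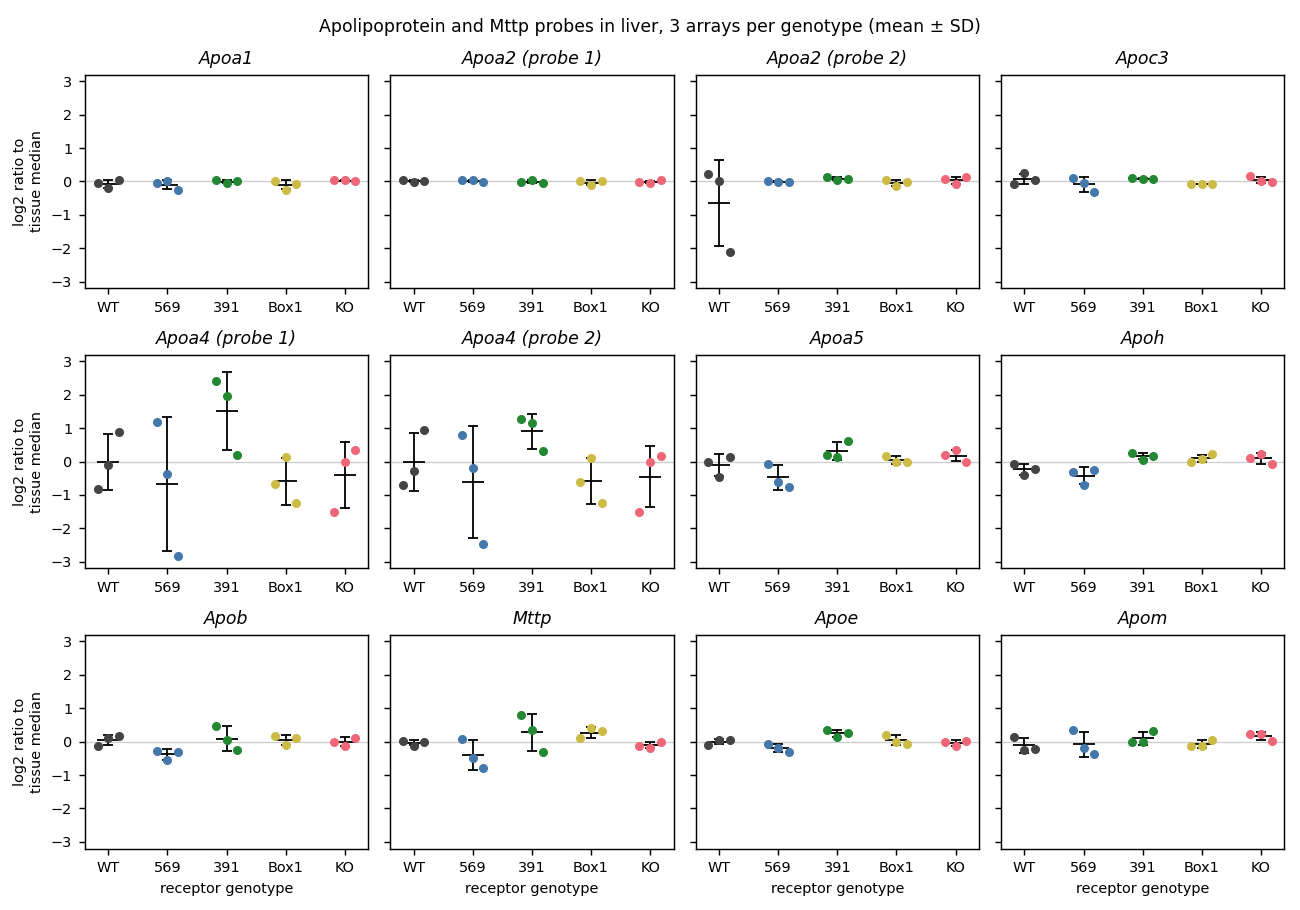
Log2 ratio of each of the 12 probes to its median over the 15 livers, by receptor genotype. Points are the 3 arrays of a genotype, bars are mean ± SD. Apoa4 spans the widest range in both probes, Apoa1 and the first Apoa2 probe stay close to 0, and 1 WT liver stands at 0.23 (ratio) in the second Apoa2 probe.

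Among the apolipoproteins of high density lipoprotein, Apoa1 and the first Apoa2 probe hardly varied between livers. Apoa1 lay between ratios of 0.84 and 1.03 in all 15 livers, with an SD of 0.103 (log2, n = 15), against a median SD of 0.136 over all probes. The first Apoa2 probe lay between 0.92 and 1.03, with an SD of 0.0423 (n = 15), and 9 of the 46643 probes varied less. These ratios cannot show whether a probe is steady because its transcript is steady or because its signal is saturated. The second Apoa2 probe read 0.23 in WT replicate 3 and between 0.91 and 1.16 in the other 14 livers, a low value that the first probe, at 1.01 in the same array, did not share. With that array included, the second Apoa2 probe had an SD of 0.561 (log2, n = 15). Apom, on the same particles, ranged from 0.77 to 1.27 and its groups overlapped. Its SD was 0.221 (log2, n = 15), and 18.2% of all probes had a larger one.

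Apoa4 was the member that varied most in liver, and it was not called by the F test over genotypes (adjusted p = 0.39 and 0.54 for its probes). Its first probe read 0.57, 0.93 and 1.84 in WT, 2.26, 0.78 and 0.14 in 569, and 5.27, 3.89 and 1.15 in 391. It read 0.63, 1.10 and 0.42 in Box1 and 0.35, 1.0 and 1.26 in KO. The highest liver stood 37.6 times above the lowest, and only 0.148% of all probes had a larger SD over the 15 livers. The second Apoa4 probe ranked the same arrays at both ends, with 2.40 and 2.21 in 391 replicates 1 and 2 and 0.18 in 569 replicate 3. On the log2 scale the range inside the 569 group alone covered most of the range of all livers, and the groups overlapped.

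The mean of 391 was 1.53 ± 0.83 (log2) above WT by the first Apoa4 probe (95% interval -0.23 to 3.29; limma adjusted p = 0.50) and 0.92 ± 0.68 by the second (adjusted p = 0.67). Against 569 the first probe differed by 2.19 ± 0.83 (adjusted p = 0.17). None of these differences was called. The intervals against WT allow both a difference near 0 and a large one. The 95% interval against 569 ran from 0.43 to 3.955, for that probe alone and with no adjustment across probes. The probe most like the first Apoa4 probe over the 15 livers was that of Arsg (Pearson r = 0.867), followed by Cidec (0.851) and Elovl5 (0.827), a description chosen after the values were seen, among 32792 probes. Cidec, which encodes a lipid droplet protein that rises in fatty liver, read 5.34, 4.59 and 0.58 in 391 and 1.70, 0.68 and 0.13 in 569. Its 2 highest livers and its lowest were the same arrays as for Apoa4.

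Apob and Mttp, the core of particle assembly, were not called in any liver comparison over all 15 arrays. Apob read 0.83, 0.68 and 0.80 in 569 against 0.91, 1.08 and 1.12 in WT on the same slide. The difference was -0.43 ± 0.15 (limma adjusted p = 0.57). Apob in KO, at 1.0, 0.91 and 1.09, differed from WT by -0.05 ± 0.15 (95% interval -0.37 to 0.27; adjusted p = 0.95). Mttp read 1.06, 0.71 and 0.58 in 569 and 1.73, 1.28 and 0.81 in 391, so the spread inside each of these groups was wide. Mttp in Box1, at 1.07, 1.32 and 1.24, differed from WT, at 1.01, 0.92 and 1.0, by 0.30 ± 0.23 (adjusted p = 0.67).

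Leaving out the 2 livers that carried pancreatic transcripts leaves 1 array in 391, replicate 1, and takes its spread from the other groups. That array was the highest of its group for Apob and Mttp. In replicates 1 to 3 of 391, Apob read 1.39, 1.04 and 0.84 and Mttp 1.73, 1.28 and 0.81. In that fit Apob stood 0.34 (log2) and Mttp 0.54 higher in 391, Box1 and KO than in WT and 569. The 2 livers left out were known from earlier results of the same data. The part that pancreatic transcripts play in the values was not tested.

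Against WT, no member was called in any of the 4 mutant livers. Of the 12 member probes, 0 were called in 569, where 0.00858% of all probes were called, 0 in 391 (1.91%), 0 in Box1 (1.32%) and 0 in KO (1.93%). At an unadjusted p under 0.05 there were 1, 3, 1 and 1 of the 12, where 7.01%, 12.4%, 12.3% and 12.7% of all probes passed. The lowest adjusted p of a member was 0.57 in 569, 0.145 in 391, 0.272 in Box1 and 0.257 in KO. With backgrounds this low, 12 probes would hold few calls, so a count of 0 says little about the members as a group.

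The widths of the intervals differed by gene. For Apoa1 the KO difference of 0.10 ± 0.09 had a 95% interval from -0.10 to 0.29, and for Apoc3 the KO difference of -0.03 ± 0.10 had one from -0.25 to 0.19. Apoa4 in KO, at -0.38 ± 0.83, had an interval from -2.14 to 1.38. The median member difference was -0.19 in 569, 0.28 in 391, 0.03 in Box1 and -0.02 in KO, beside -0.02, 0.02, 0.02 and 0.01 over all probes. Under quantile normalization the Box1 median changed sign, to -0.03.

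**Figure D2:**
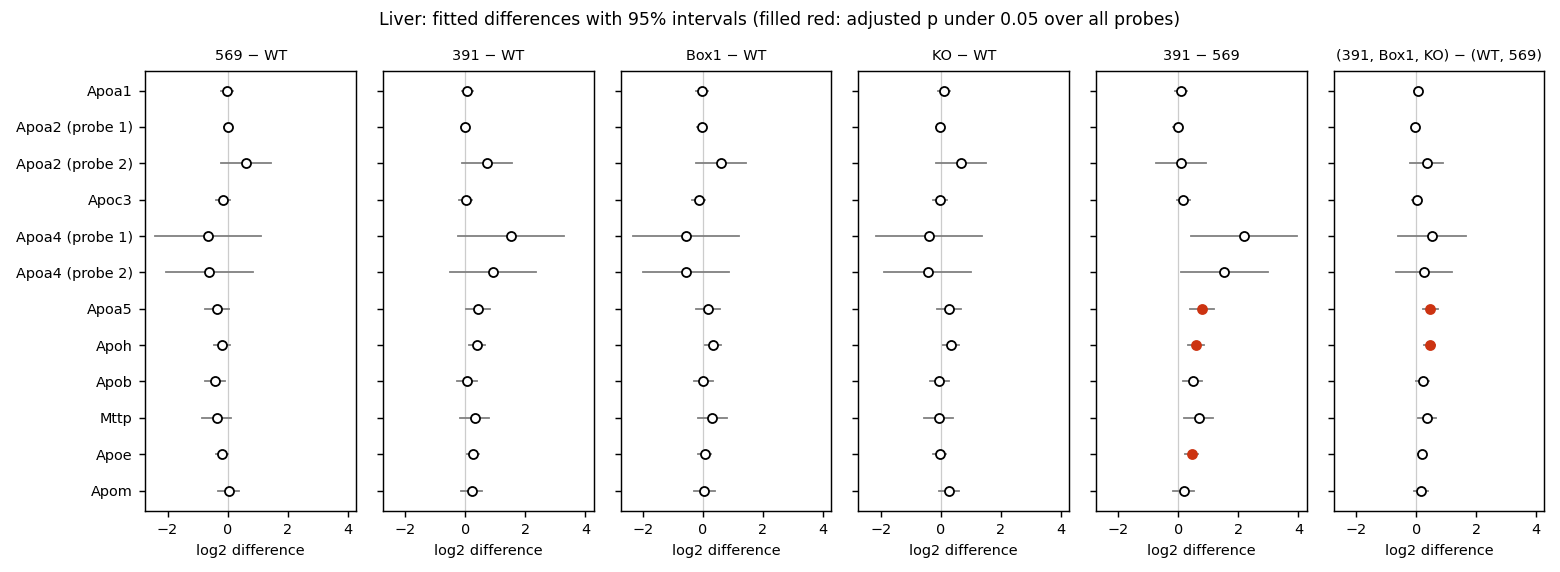
Fitted log2 differences of the 12 member probes (x axis, log2; same scale in all panels) with 95% intervals in 6 liver comparisons. Filled red points have an adjusted p under 0.05 over all probes: 0 in the 4 comparisons with WT, 3 in 391 minus 569 and 2 in the comparison of 391, Box1 and KO with WT and 569.

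Grouping the livers by receptor structure, with 391, Box1 and KO against WT and 569, gave the largest groups. Apoh and Apoa5 rose, 2 of 12 member probes, where 9.61% of all probes were called (8.69% up and 0.915% down). The members' median difference was 0.25 against 0.02 for all probes. Under quantile normalization the share of upward calls over all probes fell from 90.5% to 78.5% (2660 up and 729 down), and Apoa5 was no longer called. Slide and genotype cannot be told apart in this comparison.

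Apoh was the only member that differed between genotypes by the F test over the 4 comparisons with WT (limma adjusted p = 0.0276), which called 5.43% of all probes. Its ratios were 0.95, 0.76 and 0.85 in WT and 0.81, 0.61 and 0.84 in 569. They were 1.20, 1.04 and 1.13 in 391, 1.0, 1.05 and 1.16 in Box1, and 1.08, 1.18 and 0.95 in KO. The first 2 groups met the other 3 only at 0.95. Apoh was higher by 0.45 ± 0.08 in 391, Box1 and KO than in WT and 569 (95% interval 0.27 to 0.62; adjusted p = 0.00262).

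The call for Apoh in that comparison held in each of 15 refits without 1 array, with a highest adjusted p of 0.0107, while the F call was lost without WT replicate 3, 569 replicate 2, Box1 replicate 2 or KO replicate 1. The group means ran in the order 569, WT, KO, Box1 and 391, and neighbours in that order overlapped. Against WT alone the differences of 0.40 ± 0.13 in 391, 0.33 ± 0.13 in Box1 and 0.33 ± 0.13 in KO were similar in size and none was called (adjusted p = 0.145, 0.272 and 0.257). Albumin, a hepatocyte marker, moved in the same comparison, with Alb up by 0.59 ± 0.10 (adjusted p = 0.00149), the 1 of 8 hepatocyte markers that was called. Whether Apoh and Alb moved for a shared reason was not tested. The probes most like Apoh over the 15 livers, among 32793, were those of Ndufv1 (Pearson r = 0.972), Degs1 (0.964) and Tprgl (0.959).

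Apoa5 read 1.0, 0.72 and 1.11 in WT and 0.96, 0.66 and 0.59 in 569. It read 1.14, 1.10 and 1.53 in 391, 1.13, 0.99 and 0.99 in Box1, and 1.14, 1.27 and 1.0 in KO. The 9 livers of 391, Box1 and KO stood at 0.99 or above, and 2 of the 6 WT and 569 livers did so too. Apoa5 was higher by 0.47 ± 0.12 in the former (adjusted p = 0.0211). The call was lost without WT replicate 2, 569 replicate 2 or 569 replicate 3, with a highest adjusted p of 0.0682.

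The truncations at 391 and at 569 differ in how much of the tail they remove. Between them 3 of 12 member probes were called, all higher in 391, where 4.7% of all probes were called and 4.31% were higher. The members' median difference was 0.46 against 0.03 over all probes. Apoe read 1.28, 1.10 and 1.19 in 391 and 0.96, 0.87 and 0.81 in 569, a difference of 0.44 ± 0.10 (adjusted p = 0.017). Apoh differed by 0.59 ± 0.13 (adjusted p = 0.015) and Apoa5 by 0.79 ± 0.19 (adjusted p = 0.0256). All 391 livers stood above all 569 livers in 5 of the 12 member probes, those of Apoe, Apoh and Apoa5 and, without a call, of Apob and 1 of the 2 Apoa2 probes, where 13% of all probes did so.

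All 3 calls depended on single arrays or on the groups fitted. In a fit of these 6 arrays alone, 0 of the 3 were called (adjusted p = 0.0818 for Apoe and Apoh and 0.108 for Apoa5). Without 569 replicate 2 none of the 12 was called, without 569 replicate 3 or 391 replicate 1 there was 1, and without 569 replicate 1 there were 5. Without both arrays with pancreatic transcripts, replicate 1 alone stands for 391. The log2 differences from 569 were then 0.54 for Apoe, 0.69 for Apoh, 0.66 for Apoa5, 0.86 for Apob and 1.19 for Mttp. Under quantile normalization only Apoh was called, and the share of upward calls over all probes fell from 91.8% to 79%. This comparison shares its 391 and 569 arrays with the grouped comparison above, so the recurrence of Apoh and Apoa5 is not independent of it. The 12 acute phase genes, which are secreted by the same cells, averaged 0.954, 0.793 and -0.213 (log2) in the 569 livers and 0.206, 0.633 and -0.638 in the 391 livers, and their part in the difference was not tested. In WT livers the same genes averaged between -1.298 and -1.07.

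KO was compared with 391 on the same slide and with Box1, and 0 of 12 member probes were called in either, where 0.18% and 0.148% of all probes were called. At an unadjusted p under 0.05 there were 2 and 0 of the 12, where 8.19% and 8.71% of all probes passed. Apoe differed by -0.28 ± 0.10 between KO and 391 (adjusted p = 0.39). Apoh differed by -0.07 ± 0.13 between KO and 391 (95% interval -0.34 to 0.19) and by -0.0029 ± 0.13 between KO and Box1 (95% interval -0.27 to 0.27).

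The 7 other apolipoprotein genes on the array were Apoc1, Apoc2, Apoc4, Apod, Apof, Apon and Clu. Apoc2, the activator of lipoprotein lipase, fell in KO livers, 1 of the 7 genes, where 3.3% of all genes were called by the probe of largest SD. Its ratios were 0.13, 0.14 and 0.71 in KO and 1.08, 0.96 and 1.0 in WT. All 3 KO livers lay below WT, and KO replicate 3 stood far closer to WT than the other 2. The difference was -2.11 ± 0.49 (adjusted p = 0.0382), and it was lost in 5 of 6 refits without 1 array of the pair, with a highest adjusted p of 0.177. Apoc2 in 391 read 1.94, 1.60 and 0.70, and in Box1 1.27, 1.27 and 1.16.

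Apoc1, the neighbour of Apoe on the genome, rose by 0.30 ± 0.09 in 391, Box1 and KO against WT and 569 by 1 of its 2 probes (adjusted p = 0.0378), and the other probe gave 0.20 ± 0.08 (adjusted p = 0.17). That call was lost in 10 of 15 refits without 1 array. Apon read 1.49, 1.49 and 1.16 in 569 against 1.10, 0.88 and 1.0 in WT, a difference of 0.47 ± 0.15 that was not called (adjusted p = 0.51). In liver, Apoc4 stayed between 0.91 and 1.09, Apod between 0.85 and 1.17, Clu between 0.82 and 1.13, and Apof between 0.81 and 1.47, and none of these was called against WT.

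**Figure D3:**
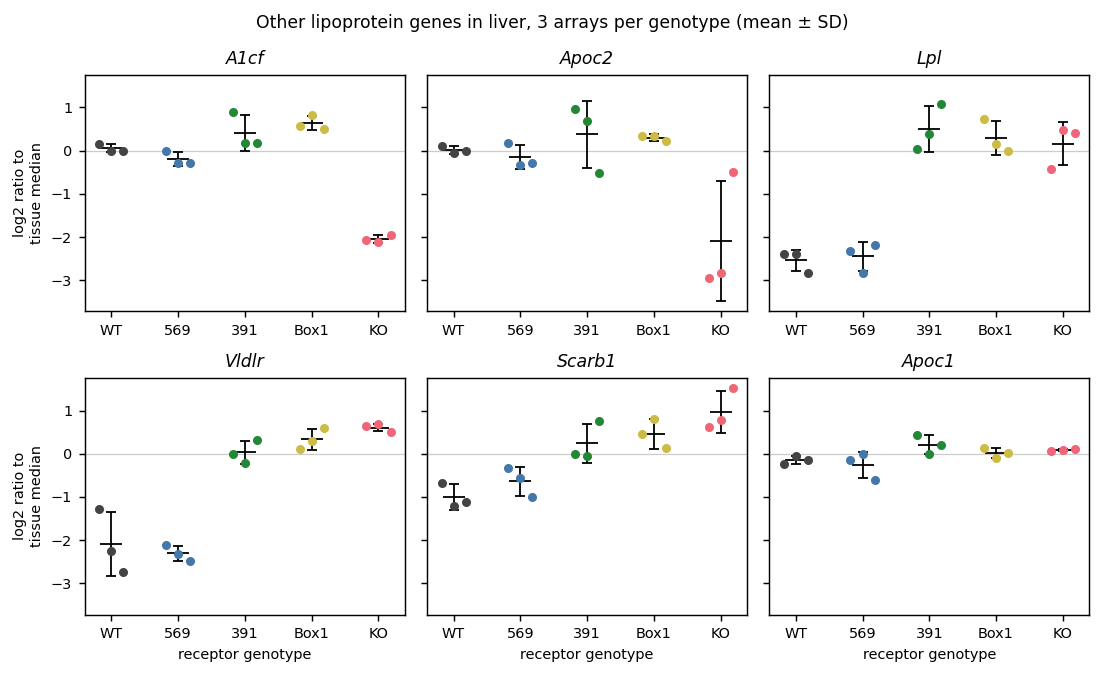
Log2 ratio to the liver median for A1cf, Apoc2, Lpl, Vldlr, Scarb1 and Apoc1, by receptor genotype. Points are the 3 arrays of a genotype and bars are mean ± SD. Each gene is shown by its probe of largest SD over the livers. A1cf is low in the 3 KO livers alone, and Apoc2 in 2 of them. By the probes shown, Lpl, Vldlr and Scarb1 are lower in WT and 569 than in most other livers. The other Lpl probes and most other Vldlr probes, not shown, lack differences of that size.

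Among 13 assembly and secretion partners, A1cf alone was called in KO against WT, and it was singled out after its values were seen. It encodes the RNA-binding partner of the Apobec1 deaminase that edits Apob transcripts. A1cf read 0.24, 0.23 and 0.26 in KO livers, 1.12, 1.0 and 1.0 in WT, 0.99, 0.82 and 0.82 in 569, 1.86, 1.13 and 1.13 in 391, and 1.48, 1.76 and 1.42 in Box1. The KO livers stood apart from all 12 others. A1cf was lower in KO by 2.10 ± 0.16 than in WT (log2 difference -2.10; adjusted p = 2.2e-06), and its log2 differences from 391, on the same slide, and from Box1 were -2.46 ± 0.16 and -2.67 ± 0.16 (adjusted p = 2.9e-06 and 5.9e-07). The call against WT was kept in 6 of 6 refits without 1 array.

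Apob, whose transcript this complex edits, was not called in the same KO livers, where it read 1.0, 0.91 and 1.09. A transcript ratio does not measure editing of that transcript. In fat A1cf lay between 0.84 and 1.21 in all 15 arrays. The KO difference was 2.12 ± 0.23 lower in liver than in fat (log2 interaction -2.12; adjusted p = 1.1e-05). A single probe measures A1cf here, and its position in the transcript was not used here.

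In 391, Box1 and KO against WT and 569, 4 of the 13 assembly and secretion partners were called up and 0 down. Counting each gene by its probe of largest SD, 13.9% of all genes were called up and 1.36% down in this comparison. Dgat1 rose by 0.46 ± 0.08 (adjusted p = 0.00166) and Dgat2 by 0.37 ± 0.09 (adjusted p = 0.0138), the enzymes of the last step of triglyceride synthesis. Sar1b, a GTPase that packages chylomicrons and very low density lipoprotein for export from the endoplasmic reticulum, rose by 0.41 ± 0.10 (adjusted p = 0.0132). Surf4, a cargo receptor for the same step, rose by 0.23 ± 0.06 (adjusted p = 0.0171).

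Of the 8 lipase and remodelling genes measured, 5 rose in that comparison and 0 fell (13.9% and 1.36% of all genes). Lpl, lipoprotein lipase, read 0.14 to 0.22 in the 6 WT and 569 livers and 0.75 to 2.10 in the 9 others, a difference of 2.81 ± 0.18 by its probe of largest SD (adjusted p = 2.0e-07). Its other 2 probes did not share this, and lay between 0.88 and 1.15 in all livers. Gpihbp1, which anchors that enzyme on capillaries, rose by 0.64 ± 0.12 (adjusted p = 0.00292). Angptl4, which inhibits the enzyme, rose by 0.61 ± 0.16 by 1 of its 3 probes (adjusted p = 0.022), with 0.17 ± 0.19 and -0.04 ± 0.07 by the others, and lost its call without WT replicate 3 or 569 replicate 3.

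In the same comparison 2 of the 6 measured genes for lipoprotein receptors and their regulators rose and 0 fell (13.9% and 1.36% of all genes). Vldlr, which takes up triglyceride-rich particles, rose by 2.52 ± 0.17 by its first probe and by 1.82 ± 0.15 by another (adjusted p = 2.5e-07 and 2.3e-06), while the other 3 of 5 probes lay between 0.73 and 1.32 in all livers. Scarb1, the receptor for high density lipoprotein, read 0.63, 0.43 and 0.46 in WT and 1.53, 1.72 and 2.85 in KO, a difference of 1.97 ± 0.27 (adjusted p = 9.0e-04). It rose by 1.37 ± 0.17 in the grouped comparison (adjusted p = 1.7e-04), and its other probes gave 1.0 ± 0.16 (adjusted p = 0.00117) and 0.43 ± 0.13 (adjusted p = 0.0564), the last without a call. The Scarb1 differences from WT in 391 and in Box1 (1.24 ± 0.27 and 1.46 ± 0.27; adjusted p = 0.0263 and 0.0118) were called by that probe alone, and were each lost in 3 of 6 refits without 1 array, among them those without WT replicate 2 or 3.

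Exporters of cholesterol rose in 3 of 4 genes and fell in 0 (13.9% and 1.36% of all genes). These were Abcg8 (0.58; adjusted p = 0.0285) and Abcg5 (0.49; adjusted p = 0.019), the pair that sends cholesterol to bile, and Abcg1 (0.39; adjusted p = 0.0359). Their calls were lost in 5, 1 and 11 of 15 refits without 1 array.

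Of 15 transcription factors known to act on apolipoprotein genes, 5 rose in the same comparison and 0 fell (13.9% and 1.36% of all genes). Nr5a2 rose by 0.84 ± 0.19 by 1 of its 2 probes (adjusted p = 0.00988), while the other gave 0.02 ± 0.08 (adjusted p = 0.92). Srebf2, a regulator of cholesterol synthesis, rose by 0.71 ± 0.09 (adjusted p = 2.5e-04), and Ppara, a regulator of fatty acid oxidation in the fasted liver, by 0.65 ± 0.15 (adjusted p = 0.0107). In all, 20 of 53 measured pathway genes outside the members rose and 0 fell in the grouped comparison, where 13.9% of all genes rose and 1.36% fell. The count of 20 lay between 14 and 22 without 1 array. Over all probes, upward calls in this comparison fell from 4055 to 2660 under quantile normalization. The count of pathway genes under that scaling is not given here. The lists were chosen with earlier results of these data known. The same 53 genes had 0 called in 569 against WT, 5 in 391, 5 in Box1 and 7 in KO, where 0.0155%, 3.18%, 2.1% and 3.3% of all genes were called.

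Fat served as the contrast, and there the members varied most in 2 arrays. For 10 of the 12 member probes, WT replicate 2 and Box1 replicate 2 were the 2 highest of the 15 fat arrays. The share of all probes with these 2 arrays highest was not computed, so whether the count is particular to the members cannot be said. Apoa2 stood at 18.41 and 79.45 by its first probe and at 19.62 and 85.06 by its second, Apoa1 at 4.81 and 21.9, and Apoc3 at 5.77 and 14.2. Apob read 2.65 and 7.38, Apom 2.62 and 7.09, and Apoh 2.19 and 6.97. In the other 13 fat arrays the medians of the 12 probes were between 0.69 and 1.0, though single arrays stood higher. Apoa2 read 9.28 by its first probe and 0.78 by its second in WT replicate 3, and 3.14 and 3.28 in Box1 replicate 3.

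WT replicate 2 and Box1 replicate 2 also stood high for part of the hepatocyte markers. The thyroxine carrier Ttr read 13.96 and 41.4, Hpx, which encodes hemopexin, 5.89 and 19.96, and Ahsg, which encodes fetuin A, 4.42 and 15.68. Trf, another of the markers, read 2.49 and 0.79, beside values up to 2.44 in the other 13 fat arrays. Of 8 hepatocyte markers, 4 and 3 exceeded 1 on the log2 scale there, with means of 1.209 and 1.769. In the other 13 arrays 0 or 1 markers did so, with means from -0.357 to 0.513. The remaining markers, Alb, Fgb, Serpinc1 and Tat, did not exceed 1 in WT replicate 2 or Box1 replicate 2. The part of hepatocyte transcripts in the member values was not tested. Apoe and Mttp did not follow this pattern, at 1.05 and 1.23 and at 1.22 and 1.34.

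**Figure D4:**
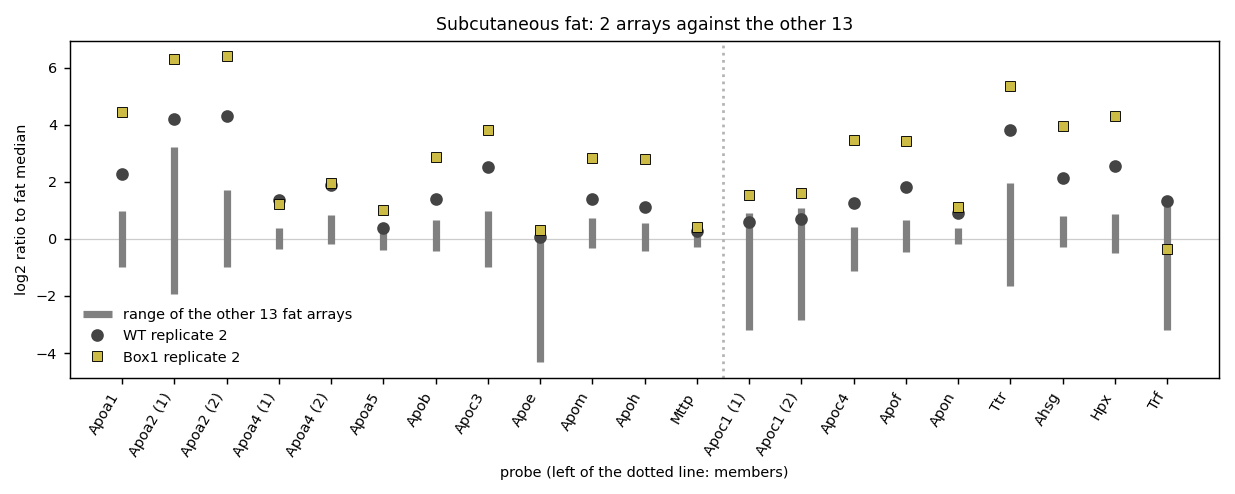
Log2 ratio to the fat median for the 12 member probes, other apolipoproteins and 4 of the 8 hepatocyte markers. Dots are WT replicate 2, squares Box1 replicate 2, and grey bars the range of the other 13 fat arrays. Both arrays lie above the bar for most members and for Ttr, Ahsg and Hpx, and inside or near it for Apoe and Trf.

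Apoe, which adipocytes and macrophages also make, was low in a different fat array. It read 0.05 in 569 replicate 3 and between 0.67 and 1.31 in the other 14. The same array had all 6 adipocyte markers below -1 on the log2 scale (mean -2.316) and all 7 skeletal muscle markers above 1. It also had 4 of 5 macrophage markers (mean -1.738) and 2 of 2 blood markers (mean -1.929) below -1, and Apoc1 stood at 0.11 there. The part of these in the Apoe value was not tested. Skeletal muscle markers also varied over the other fat arrays, with means between -2.846 and 4.28. In such bulk samples fewer cells of a type and less RNA per cell cannot be told apart.

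No member was called in fat. Of 12 probes, 0 were called in 569, 391, Box1 and KO against WT, where 0%, 0.0129%, 0.00214% and 0% of all probes were called. At an unadjusted p under 0.05 there were 0, 0, 0 and 1 of the 12, where 8.96%, 4.58%, 4.54% and 6.24% of all probes passed. The F test over genotypes called 0 of 12 (0.015% of all probes). The difference from WT was not called different between liver and fat for any member, with 0 of 12 in each of 569, 391, Box1 and KO and 0%, 0.227%, 0.148% and 0.341% of all probes called. In the 4 comparisons with WT and the F test the counts remained 0 without WT replicate 2 and Box1 replicate 2. They also remained 0 without those arrays and 569 replicate 3. The spread of the members in fat was wide enough to leave large differences undetected: for Apoa1 the 391 difference was -1.61 ± 1.11 (95% interval -4.01 to 0.80; limma adjusted p = 1).

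**Figure D5:**
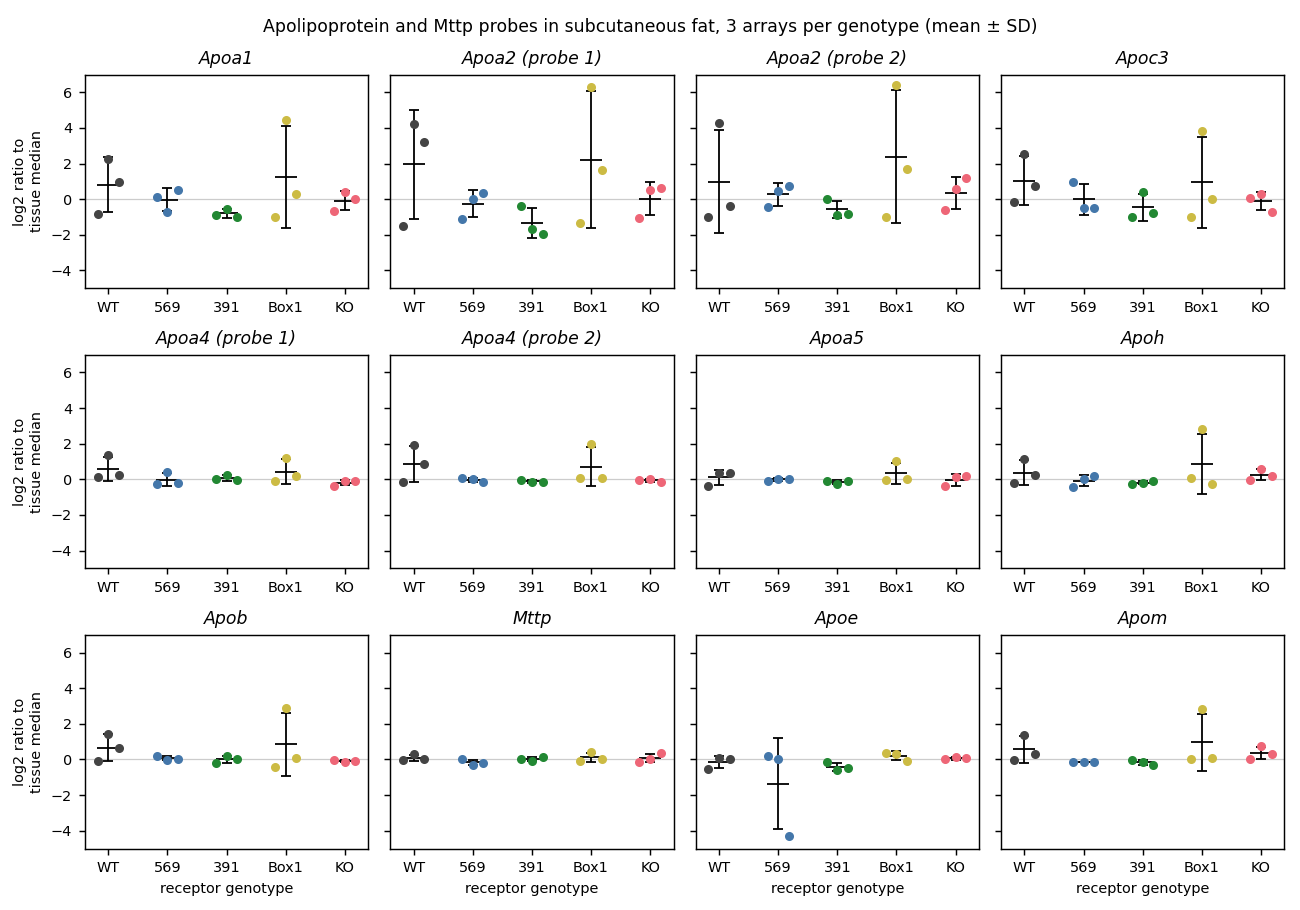
Log2 ratio of each of the 12 probes to its median over the 15 fat arrays, by receptor genotype. Points are the 3 arrays of a genotype and bars are mean ± SD. A WT and a Box1 array stand high in most panels, and a 569 array stands low for Apoe.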

How the data were processed

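The authors deposited a table of ratios. From the values, each probe was divided by its median across the 15 arrays of that tissue, since this median was exactly 1 for all 46643 probes in both tissues. The ratios carry 2 decimals between 0.01 and 168.6, and array medians lay between 0.98 and 1.01. Per the labels' protocols, total RNA from frozen tissue was isolated on columns, biotinylated and hybridised to Illumina arrays at a facility. The authors' background treatment, normalization and software: not given in the sources used here. Signal over background is unknown.

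Ratios were taken to log2 with no offset and no filter and fitted with limma 3.58.1 in R 4.3.3 (lmFit, contrasts.fit, eBayes), jointly for the 5 genotypes of each tissue, and for all 30 arrays together for the interactions. Tests were two-sided with Benjamini-Hochberg adjustment across the 46643 probes, and the fit was tested on simulated data. Of the probes, 32794 have 1 gene symbol in the platform annotation, 55 several and 13794 none. In counts by gene, a gene stands by its probe with the largest SD in that tissue, a choice that uses the arrays tested. Members and lists were chosen with earlier results of these data known. Named were all members, all other apolipoproteins, up to 3 called genes each way per other list in the grouped comparison and the 3 nearest probes of members called by the F test. A1cf, Surf4, Cidec, the neighbours of Apoa4, and values of named genes in further comparisons were chosen after the values were seen. Of the 60 listed pathway genes, 53 were measured. Alternatives were quantile normalization, median centring, an offset of 0.1, array weights, robust eBayes, the compared groups alone, the mean of a gene's probes and leaving out arrays. The 3 arrays per group limit the precision.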

Additional observations from a re-analysis of the deposited data

Results flagged for a closer look

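These results were singled out because an interaction contrast (limma, all 30 arrays) called the effect of a mutation unequal in the 2 tissues. Only genes already named above were considered, each by its probe of largest SD over the liver arrays. Lpl, Vldlr and Scarb1 had been named for their calls in liver, and A1cf after its values were seen. The contrast between tissues is therefore not independent of that choice. The KO difference of A1cf was lower in liver than in fat (log2 -2.12 ± 0.23, adjusted p = 1.1e-05). The Lpl difference was higher in liver for 391 (3.18 ± 0.39, adjusted p = 8e-05), Box1 (3.02 ± 0.39, adjusted p = 1.8e-04) and KO (2.89 ± 0.39, adjusted p = 2.8e-04), by 1 of its 3 probes. The KO difference was also higher in liver for Vldlr (2.88 ± 0.51, adjusted p = 0.0079), by 1 of its 5 probes, and for Scarb1 (2.66 ± 0.59, adjusted p = 0.046), by 1 of its 3. No member of the apolipoprotein set was among them. Groups of 3 arrays were not tested for outlying samples.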

How the results depend on the processing

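Over the alternatives run, the member counts of 0 against WT in liver and in fat, for KO against 391 and against Box1, and for the interactions were all unchanged. In the grouped comparison the 2 member probes called became 1 under quantile normalization and 1 to 3 without 1 array. For 391 against 569 the 3 became 1 under quantile normalization, 0 with the groups compared alone, and 0 to 5 without 1 array. The F test's 1 became 0 to 2 without 1 array. The fit without 391 replicates 2 and 3 keeps 1 array in 391, so its counts of called members are left out. The pathway counts below share this limit.

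Outside the grouped comparison, the count of other pathway genes moved as follows. In 569 against WT, 0 became 1 with robust eBayes, array weights, or without 391 replicates 2 and 3 (0 to 1 without 1 array). In 391 against WT, 5 became 3 with the groups alone, 8 without 391 replicates 2 and 3, and 2 with the mean of a gene's probes (2 to 6). In Box1 against WT, 5 became 10 with the groups alone and 9 without the 391 pair (2 to 5). In KO against WT, 7 became 11 without that pair (4 to 6). For KO against 391, 1 became 2 under quantile normalization and 3 without the pair (1 to 5). For 391 against 569, 9 became 5 with the groups alone and 15 without the pair (5 to 14). For KO against Box1, 1 became 2 under quantile normalization or array weights, 4 with the groups alone and 3 without the pair (1 to 2). The cause of these shifts was not tested. Apoc2 in KO lost its call with robust eBayes (adjusted p = 0.103) and with the groups alone (0.0712).

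No paired analysis was possible because the labels carry no replicate numbers and the numbers used here follow accession order. Slide was not fitted as a block, since it is confounded with genotype in every comparison that spans slides.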
